A study of Mus musculus with 18 samples.

Results

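The 48 genes described here encode proteins of synaptic vesicles and of the machinery that docks, primes, fuses and retrieves them: synapsins, vesicle membrane proteins, synaptotagmins and related calcium sensors, SNARE proteins with their recycling factors and complexins, RAB3 GTPases, active zone and priming proteins, and endocytic proteins. They were chosen by name, and the deposited gene table lists them in capitals (SYT13, UNC13A, SNAP91), for which the mouse spelling is used here. Of the 48 names, 46 had a row among the 31441 genes of the deposited gene table, and the other two, Cplx3 and Dnm1, are not analysed here. A probe above background in at least 3 arrays was found for 34 of them, among 13358 genes tested.

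A synaptic vesicle is filled with transmitter, held near the presynaptic membrane by synapsins and RAB3 proteins, docked at the active zone, and primed by proteins of the Munc13 and CAPS families. Fusion is driven by the zipping of vesicle and plasma membrane SNAREs, is held ready by complexins and is triggered by calcium binding to synaptotagmins, after which clathrin adaptors and amphiphysin retrieve the membrane. Newly born neurons switch on many of these genes together, and midbrain dopamine neurons use the machinery to release dopamine both from axon terminals and from dendrites.

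The arrays come from mouse embryonic stem cells of strain J1 in 3 reporter lines, Pitx3::YFP, Nurr1::GFP and Hes5::GFP, each with a BAC transgene in which a fluorescent protein reports on 1 gene. Pitx3 is a homeobox factor of dopamine neurons, Nurr1 (gene Nr4a2) a nuclear receptor of postmitotic dopamine precursors and neurons, and Hes5 a Notch-induced repressor of neural progenitors. Every line was differentiated toward the midbrain dopamine fate and sorted by fluorescence on days 14 to 15 into positive and negative cells, so there are 6 groups of 3 arrays: Pitx3 positive, Pitx3 negative, Nurr1 positive, Nurr1 negative, Hes5 positive and Hes5 negative. No drug treatment separates the groups, each reporter was read in 1 line, and the labels call the cell type a mouse embryonic stem cell in all groups although the sorted cells were differentiated. They do not say whether replicates are separate differentiations, so p-values measure only the spread between these arrays.

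Levels are normalized log2 intensities, and a difference is the positive minus the negative mean unless stated otherwise. A gene rose or fell where limma's Benjamini-Hochberg adjusted p over all 13358 genes was under 0.05. Because the 2 arrays of 1 number and line, positive and negative, moved together, each sort was fitted without pairs and with each pair as a block, called the paired fit. The reporter genes followed the sorts: Pitx3 was 9.16 ± 1.27 in Pitx3 positive and 5.06 ± 0.68 in Pitx3 negative cells, Nr4a2 was 10.59 ± 0.38 in Nurr1 positive and 7.85 ± 0.68 in Nurr1 negative cells, and the Hes5 gene was 12.17 ± 0.26 in Hes5 positive cells, against 10.13 ± 0.89 in Hes5 negative cells (SD, n = 3 each). Labels disagree for Hes5 negative replicate 2, whose source name reads GFP-positive while title and genotype read GFP-negative. It was kept as negative, it stood apart from the other Hes5 negative arrays for the vesicle genes, and counts that rest on it are given with and without it. In sorted bulk RNA, fewer cells of a type and less RNA per cell cannot be told apart.

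The vesicle and exocytosis genes were higher in positive than in negative cells of the Pitx3 and Nurr1 lines, nearly across the list, while most single genes did not pass the test. In the Pitx3 line 32 of 34 had a higher mean in positive cells, against 51.5% of all genes, with a median difference of 0.64 against 0.01 for all genes. In the Nurr1 line 31 of 34 did, against 47.2% of all genes, with a median of 0.68 against -0.02. In the Hes5 line 22 of 34 did, against 54.7% of all genes, with a median of 0.13 against 0.04, and 30 of 34 did without Hes5 negative replicate 2. With genes not above background in a group set to a bound from the lowest detected signal of each array, or left out where no bound could be had, the medians were 0.62 over 34 genes, 0.64 over 33 and 0.13 over 30 in the Pitx3, Nurr1 and Hes5 sorts.

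The mean over the 34 genes was 8.63, 9.23 and 8.80 in the Pitx3 positive arrays, against 8.02, 8.82 and 8.13 in the Pitx3 negative arrays. It was 8.68, 8.53 and 8.32 in the Nurr1 positive arrays, against 7.55, 7.93 and 8.11 in the Nurr1 negative arrays. It was 8.0, 8.13 and 7.77 in the Hes5 positive arrays, against 7.35, 8.57 and 7.62 in the Hes5 negative arrays. Nurr1 positive arrays all lay above Nurr1 negative arrays, Pitx3 negative replicate 2 lay above Pitx3 positive replicates 1 and 3, and Hes5 negative replicate 2 lay above every Hes5 positive array.

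**Figure D1:**
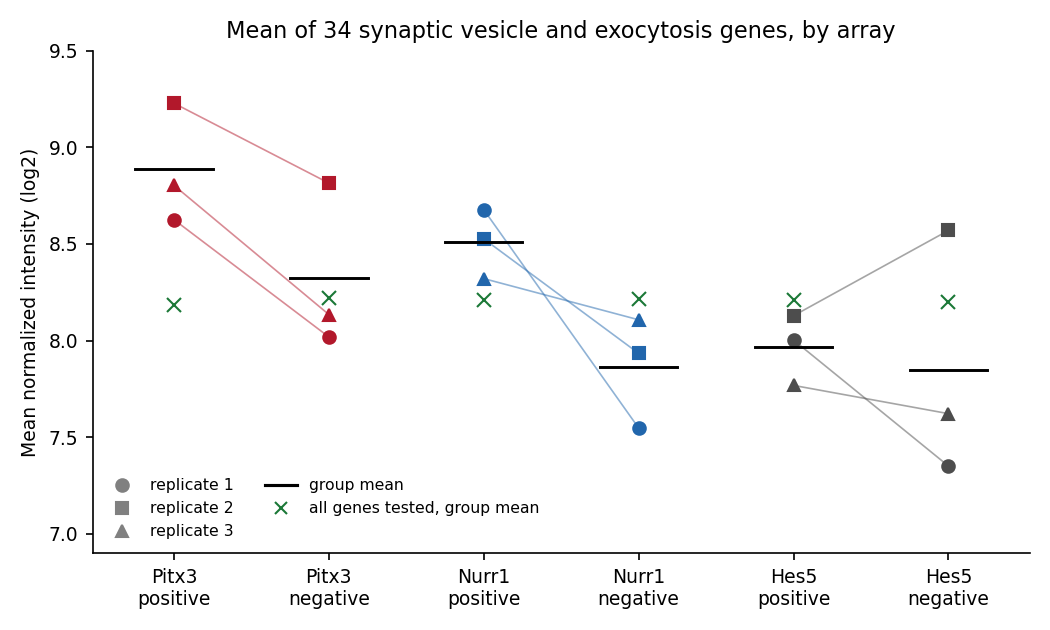
Mean normalized log2 intensity of the 34 genes tested (vertical axis) in each array of the 6 groups. Lines join arrays of the same number within a line, bars are group means and crosses the group means of all genes tested. Each Pitx3 and Nurr1 pair slopes down toward the negative cells, and the replicate 2 pair of the Hes5 line slopes up, with 8.13 in positive and 8.57 in negative cells.

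Pair by pair, the positive cells had the higher value for 31, 29 and 29 of 34 genes in Pitx3 pairs 1, 2 and 3, and for 31, 29 and 27 in the Nurr1 pairs. In the Hes5 line the counts were 28, 5 and 25 of 34. The second Hes5 pair, which holds the array with conflicting labels, is the only 1 of the 9 pairs in which most of these genes were lower in positive cells, with a median difference of -0.49. All genes together gave 46.5% to 55% higher values over the 9 pairs. The positive cells had the higher value in all 3 Pitx3 pairs for 26 of 34 genes, against 30.7% of all genes, and in all 3 Nurr1 pairs for 26 of 34, against 26.5%.

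**Figure D2:**
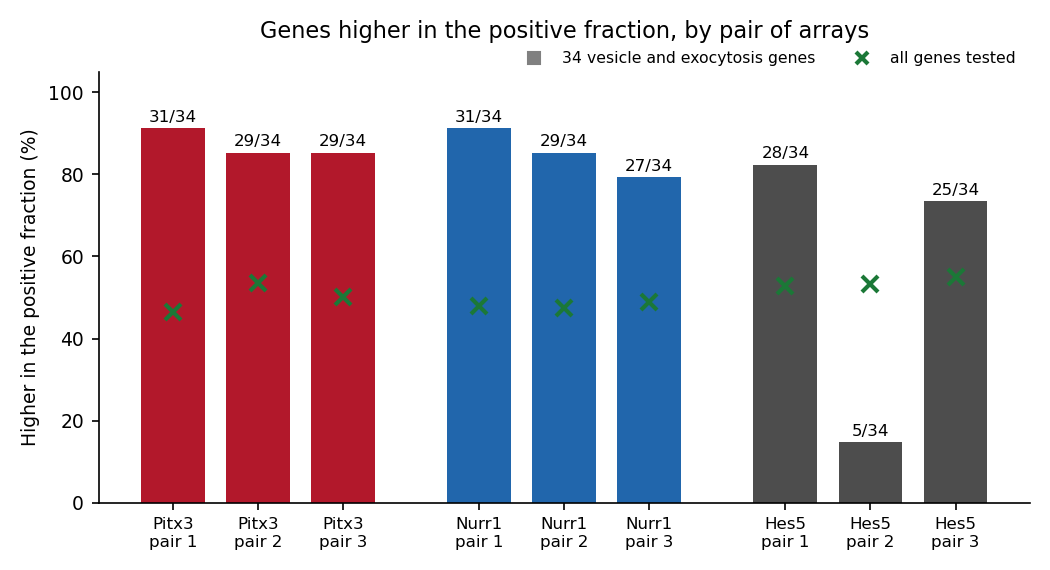
Share of genes with a higher value in the positive than in the negative array of each pair, for the 34 vesicle and exocytosis genes (bars, with counts) and for all genes tested (crosses). Counts lie between 25 and 31 of 34 in 8 pairs, and the second Hes5 pair has 5 of 34.

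Gene by gene, few of the 34 passed the test. In the Pitx3 sort without pairs Syt13 rose, 1 of 34 where 0.344% of all genes rose, and none fell, where 0.0674% of all genes fell. Syt13 passed the detection filter mostly through the cells where it was higher, with 3 Pitx3 positive, 2 Nurr1 positive and 1 Hes5 negative array above background. In the paired fit 5 of 34 rose, namely Syt13, Snap91, Unc13a, Amph and Cadps, where 6.24% of all genes rose, and none fell, where 8.82% of all genes fell. In the Nurr1 sort limma called 0 of 34 in either fit, where 0.0225% of all genes rose and 0% fell without pairs, and 0.651% rose and 0.112% fell with pairs. At an unadjusted p under 0.05 it had 9 rises of 34, where 5.91% of all genes had one, and the Pitx3 sort had 3, where 6.96% did. In the Hes5 sort limma called 0 of 34 in either fit and 0 had an unadjusted p under 0.05 without pairs, where 3.6% of all genes had a rise. Of all genes 0.015% rose and 0% fell there without pairs, and 0.636% rose and 0.606% fell with pairs. Of the 34 genes, 4 were higher in every Pitx3 positive than in every Pitx3 negative array (9.36% of all genes), and 21 were in the Nurr1 line (11.6% of all genes) and 0 in the Hes5 line (6.07% of all genes).

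**Figure D3:**
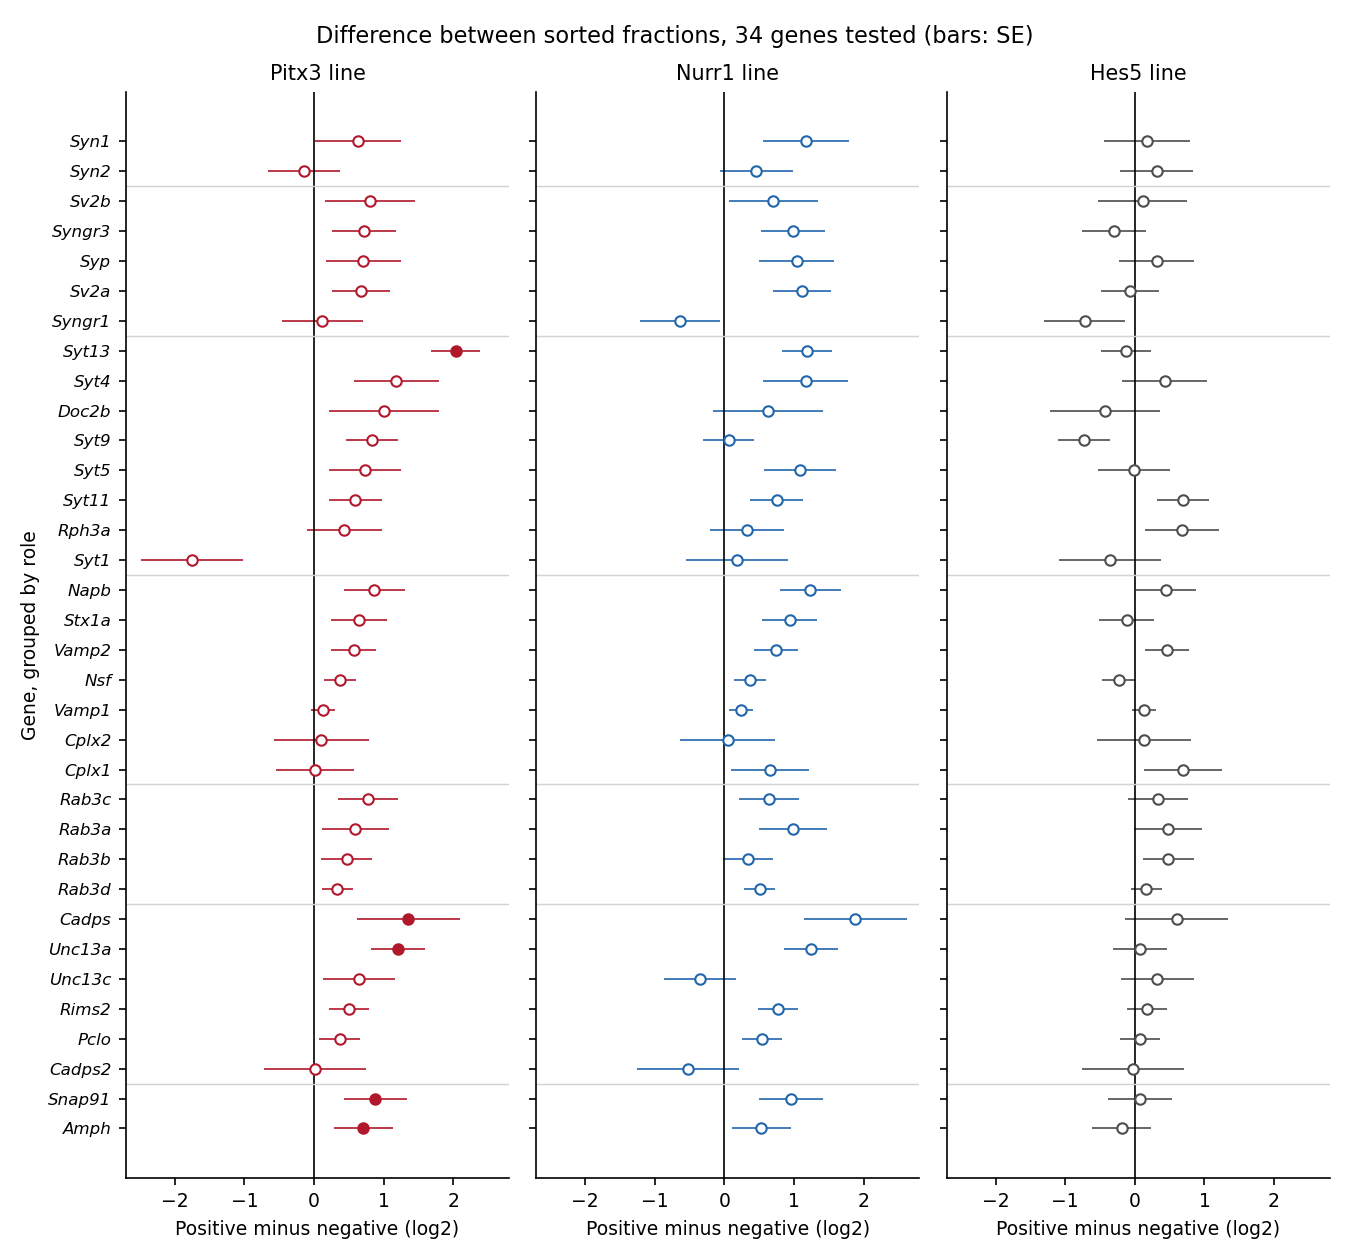
Difference between positive and negative cells (log2, points, with SE from the fit without pairs as bars) for the 34 genes in the Pitx3, Nurr1 and Hes5 lines, grouped by role and ordered by the Pitx3 line. Filled points passed the test with or without pairs. The 5 filled points are Syt13, Cadps, Unc13a, Snap91 and Amph in the Pitx3 line, and Syt1 lies at -1.76 in that line.

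Of the synapsins, which coat vesicles and hold them in the reserve pool, Syn1 and Syn2 were tested. Syn1 had 10.34, 11.19 and 10.12 in Pitx3 positive cells, against 9.49, 10.71 and 9.53 in Pitx3 negative cells, and 10.35, 10.1 and 10.11 in Nurr1 positive cells, against 7.92, 9.11 and 10.01 in Nurr1 negative cells. The Pitx3 groups overlapped and the Nurr1 groups did not, with differences of 0.64 ± 0.62 (SE) and 1.18 ± 0.62 (SE) (adjusted p = 0.671 and 0.634, and 0.374 and 0.172 in the paired fit). In the Hes5 line Syn1 had 9.82, 9.49 and 8.52 in positive cells, against 8.53, 10.61 and 8.18 in negative cells, a difference of 0.17 with overlapping groups. Syn2 had 7.8, 8.54 and 7.42 in Pitx3 positive cells, against 7.84, 9.04 and 7.3 in Pitx3 negative cells, and was the other gene besides Syt1 with a lower mean there, by a difference of -0.14 ± 0.52 (SE) (adjusted p = 0.932). In the Nurr1 line it had 7.52, 6.99 and 6.87 in positive cells, against 6.73, 6.44 and 6.84 in negative cells, a difference of 0.46 without overlap. Syn2 had 8.02, 6.92 and 6.83 in Hes5 positive cells, against 6.28, 8.19 and 6.34 in Hes5 negative cells, and the groups overlapped. Syn3 could not be tied to a scanner probe, and it was listed between 5.46 and 6.03 (log2 intensity) in the authors' deposited table.

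Synaptophysin (Syp) is an abundant protein of the vesicle membrane, and synaptogyrin 3 (Syngr3), its relative, binds the dopamine transporter. Syp had 11.86, 12.66 and 12.002 in Pitx3 positive cells, against 10.81, 12.24 and 11.34 in Pitx3 negative cells, and 11.99, 11.42 and 11.13 in Nurr1 positive cells, against 9.68, 10.89 and 10.87 in Nurr1 negative cells. Its groups overlapped in the Pitx3 line and did not in the Nurr1 line, and neither difference, 0.71 ± 0.54 (SE) and 1.04 ± 0.54 (SE), passed the test (adjusted p = 0.578 and 0.633, and 0.303 and 0.198 in the paired fit). Syngr3 had 10.01, 10.88 and 10.34 in Pitx3 positive cells, against 9.12, 10.55 and 9.39 in Pitx3 negative cells, and 10.03, 10.16 and 9.48 in Nurr1 positive cells, against 8.5, 9.09 and 9.13 in Nurr1 negative cells. Its differences were 0.72 ± 0.46 (SE) with overlap and 0.99 ± 0.46 (SE) without (adjusted p = 0.5 and 0.593). The Hes5 line gave no common direction: Syp had 10.5, 10.76 and 10.24 in positive cells, against 9.15, 11.63 and 9.78 in negative cells, and Syngr3 had 8.85, 9.11 and 8.67 in positive cells, against 8.66, 10.43 and 8.44 in negative cells. In both genes Hes5 negative replicate 2 was the highest of the 6 arrays of its line.

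Sv2b, a glycoprotein of the vesicle membrane, had 8.18, 8.86 and 9.25 in Pitx3 positive cells, against 7.24, 8.62 and 8.01 in Pitx3 negative cells, and 9.84, 9.36 and 8.56 in Nurr1 positive cells, against 8.62, 8.55 and 8.47 in Nurr1 negative cells. Both pairs of groups overlapped, each of the 6 pairs was higher in positive cells, and the differences were 0.81 ± 0.64 (SE) and 0.7 ± 0.64 (SE) (adjusted p = 0.595 and 0.786, and 0.0608 and 0.14 in the paired fit). Sv2b had 6.51, 9.08 and 8.97 in Hes5 positive cells, against 6.85, 8.71 and 8.67 in Hes5 negative cells. Replicate 1 was the low array in both Hes5 groups. Its relative Sv2a differed by 0.68 in the Pitx3 sort and 1.12 in the Nurr1 sort. Syngr1 cannot be given 1 direction, because its 4 probes differed by 0.99, 1.35, -0.48 and 0.12 in the Pitx3 sort, and the probe used here, the brightest, had the last of these. Median scaling in place of quantile normalization turned its sign in the Pitx3 sort, and the authors' deposited table turned it in the Nurr1 sort.

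The synaptotagmins held both extremes of the Pitx3 sort, Syt13 and Syt1. Syt13, an atypical synaptotagmin without the residues that coordinate calcium, had 6.73, 7.34 and 7.36 in Pitx3 positive cells, against 5.29, 5.36 and 4.68 in Pitx3 negative cells. All 3 positive arrays were above background and all 3 negative arrays were not, so the fold is a lower bound: Syt13 was at least 2.52-fold higher in Pitx3 positive cells, and the fitted difference was 2.03 ± 0.35 (SE) (adjusted p = 0.0263, and 0.0155 in the paired fit). For such bounds an undetected array was set to its own value or to the lowest detected signal of that array, 5.70 to 6.08 over the 18 arrays, whichever was higher. The call was lost when any of Pitx3 positive replicates 2 and 3 or Pitx3 negative replicates 1, 2 and 3 was left out, with differences between 1.82 and 2.24 and adjusted p between 0.00567 and 0.171 over the 18 single arrays left out. It was also lost in the authors' deposited table (0.0606), without the detection filter (0.0627) and with the arrays of the Pitx3 line alone (0.0908). In the paired fit it was lost without Pitx3 pair 2 (0.102) or 3 (0.12).

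In the Nurr1 line Syt13 had 6.89, 6.58 and 5.48 in positive cells, against 5.0, 4.9 and 5.49 in negative cells. Positive replicates 1 and 2 were above background, positive replicate 3 and all negative arrays were not, and Syt13 was at least 1.43-fold higher in Nurr1 positive cells (adjusted p = 0.402, and 0.109 in the paired fit). Syt13 had 4.96, 5.2 and 5.03 in Hes5 positive cells, against 4.85, 5.85 and 4.86 in Hes5 negative cells. Hes5 negative replicate 2 was the only array of that line above background for Syt13.

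Syt1, the fast calcium sensor of vesicle fusion, went the other way in the Pitx3 line, with 10.19, 10.28 and 9.73 in positive cells, against 11.26, 12.71 and 11.49 in negative cells. Every Pitx3 positive array was below every negative array, the only such gene of the 34 (7.66% of all genes), but the difference of -1.76 ± 0.73 (SE) did not pass the test (adjusted p = 0.291, and 0.0549 in the paired fit). Among the paired fits with 1 pair left out, Syt1 fell only without Nurr1 pair 1, Hes5 pair 1 or Hes5 pair 2. There 8.58%, 13.3% and 10% of all genes fell. The 3 probes of Syt1 gave -1.76, -1.73 and -0.99. In the Nurr1 line Syt1 had 9.68, 10.18 and 9.67 in positive cells, against 7.71, 10.66 and 10.6 in negative cells. Negative replicate 1 was the low array there, the other two negative arrays were above all positive arrays, and the groups overlapped. Syt1 had 9.93, 10.55 and 9.26 in Hes5 positive cells, against 9.48, 11.8 and 9.55 in Hes5 negative cells, again with Hes5 negative replicate 2 the highest.

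Syt4, a synaptotagmin of dense core and other vesicles, had 11.21, 11.52 and 11.48 in Pitx3 positive cells, against 9.8, 10.75 and 10.11 in Pitx3 negative cells, and 10.54, 10.61 and 10.73 in Nurr1 positive cells, against 8.79, 9.38 and 10.21 in Nurr1 negative cells. The groups did not overlap in either line, yet the differences of 1.18 ± 0.61 (SE) and 1.17 ± 0.61 (SE) missed the threshold (adjusted p = 0.386 and 0.633, and 0.0933 and 0.147 in the paired fit). Syt4 had 10.03, 10.06 and 8.26 in Hes5 positive cells, against 8.07, 10.7 and 8.28 in Hes5 negative cells. Over the 8 synaptotagmins and related sensors tested, 7 had a higher mean in Pitx3 positive cells (median 0.78), 8 in Nurr1 positive cells (median 0.69) and 3 in Hes5 positive cells (median -0.07). Without Hes5 negative replicate 2 the Hes5 count was 6 of 8 with a median of 0.47. With genes not above background at their bound or left out, the medians were 0.78 over 8, 0.57 over 8 and 0.21 over 6 genes. In the Pitx3 sort Syt5, Syt9, Syt11, Doc2b and Rph3a, which were among the 7, differed by 0.73, 0.83, 0.59, 1.0 and 0.44. Doc2b was above background in 3 Pitx3 positive arrays and in only 1 Pitx3 negative array. Syt9, a calcium sensor of fusion, differed by -0.73 ± 0.37 (SE) in the Hes5 sort, the only gene of the 34 lower there in every positive than in every negative array (4.07% of all genes, adjusted p = 0.752).

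**Figure D4:**
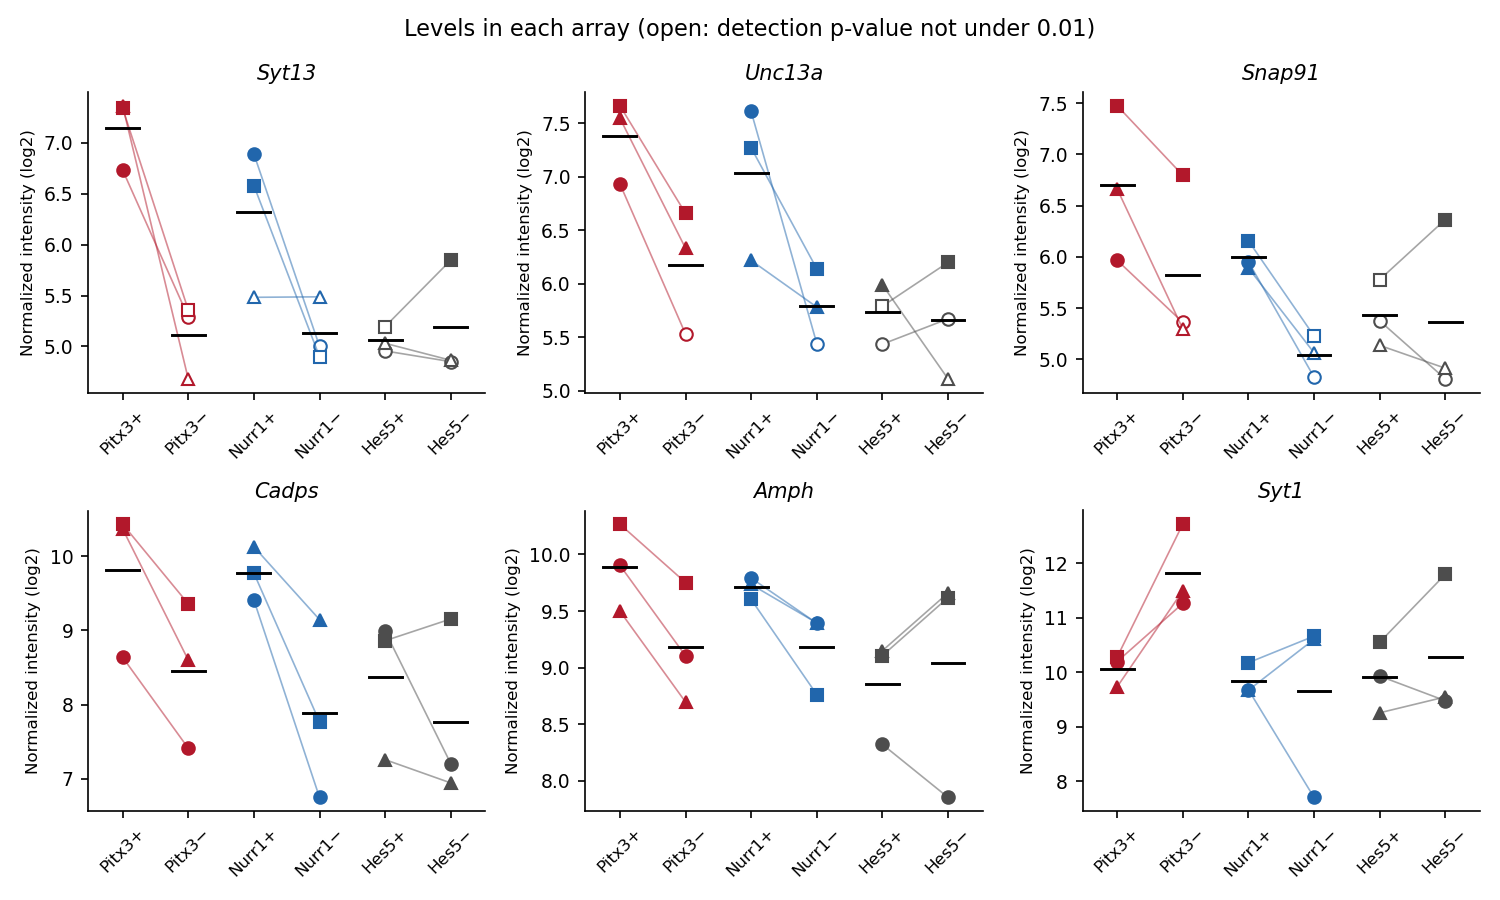
Normalized log2 intensity of 6 genes in each array of the 6 groups, with lines joining arrays of the same number, bars for group means and open symbols where the detection p-value was not under 0.01. Syt13, Unc13a, Snap91, Cadps and Amph are higher in every Pitx3 pair, Syt1 is lower in every Pitx3 pair, and Hes5 negative replicate 2 (square) is above the Hes5 positive array of the same number in all 6 genes.

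All 7 tested genes of the SNARE group had a higher mean in Pitx3 positive and in Nurr1 positive cells, with medians of 0.37 and 0.65, except that in the authors' deposited table Cplx1 in the Pitx3 sort and Vamp1 in the Nurr1 sort changed sign, and none passed the test. Napb encodes beta-SNAP, which recruits the ATPase NSF to take used SNARE complexes apart. It had 9.28, 10.07 and 9.51 in Pitx3 positive cells, against 8.34, 9.45 and 8.47 in Pitx3 negative cells, and 9.52, 9.24 and 8.81 in Nurr1 positive cells, against 7.49, 8.02 and 8.36 in Nurr1 negative cells. The Nurr1 groups did not overlap, and the differences were 0.87 ± 0.43 (SE) and 1.23 ± 0.43 (SE) (adjusted p = 0.375 and 0.503, and 0.173 and 0.122 in the paired fit). Stx1a, the plasma membrane SNARE syntaxin 1A, had 10.31, 10.99 and 10.34 in Pitx3 positive cells, against 9.61, 10.59 and 9.5 in Pitx3 negative cells, and 10.47, 9.75 and 10.19 in Nurr1 positive cells, against 8.63, 9.27 and 9.7 in Nurr1 negative cells. It showed the same order, with overlap in the Pitx3 line and none in the Nurr1 line, and differences of 0.65 ± 0.40 (SE) and 0.94 ± 0.40 (SE) (adjusted p = 0.475 and 0.56).

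In the Hes5 line Napb had 8.51, 8.09 and 8.18 in positive cells, against 7.1, 9.0 and 7.35 in negative cells, and Stx1a had 9.19, 9.47 and 9.05 in positive cells, against 8.76, 10.27 and 9.04 in negative cells. The groups overlapped for both genes. The vesicle SNARE Vamp2 differed by 0.57, 0.74 and 0.47 in the Pitx3, Nurr1 and Hes5 sorts, and the ATPase Nsf by 0.37, 0.36 and -0.23. Cplx1, Cplx2 and Vamp1 lay near 0 in the Pitx3 sort, at 0.01, 0.1 and 0.13, and the sign of Cplx1 turned with median scaling too.

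Of the RAB3 GTPases, which sit on vesicles and help them dock, Rab3a and Rab3d were above background in all 18 arrays, and both had higher means in Pitx3 positive, Nurr1 positive and Hes5 positive cells than in the negative cells of the line. Rab3d differed by 0.34, 0.51 and 0.16 in the Pitx3, Nurr1 and Hes5 sorts. Rab3b was above background in 1 Pitx3 positive, 1 Nurr1 positive and 2 Hes5 positive arrays and in no negative array, and no fold is given for it. Rab3a, the brain form, had 10.99, 11.45 and 10.98 in Pitx3 positive cells, against 10.04, 11.12 and 10.48 in Pitx3 negative cells, and 11.23, 10.71 and 10.71 in Nurr1 positive cells, against 9.53, 9.96 and 10.2 in Nurr1 negative cells. The Pitx3 groups overlapped, the Nurr1 groups did not, and the differences were 0.59 ± 0.49 (SE) and 0.99 ± 0.49 (SE) (adjusted p = 0.606 and 0.607). Rab3a had 9.83, 10.17 and 9.67 in Hes5 positive cells, against 8.25, 10.91 and 9.06 in Hes5 negative cells. Rab3c had 4.93, 6.62 and 6.28 in Pitx3 positive cells, against 4.86, 5.34 and 5.31 in Pitx3 negative cells, which were all not above background, and was at least 1.10-fold higher in positive cells (adjusted p = 0.421). Only Pitx3 positive replicates 2 and 3 and Nurr1 positive replicates 1 and 3, with Nurr1 negative replicate 3, were above background for Rab3c. It had 6.36, 4.96 and 6.39 in Nurr1 positive cells, against 5.0, 4.95 and 5.83 in Nurr1 negative cells, and 5.46, 5.05 and 5.52 in Hes5 positive cells, against 4.76, 5.16 and 5.13 in Hes5 negative cells.

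Of the active zone and priming genes, 6 of 6 had a higher mean in Pitx3 positive, 4 of 6 in Nurr1 positive and 5 of 6 in Hes5 positive cells, where it was 6 of 6 without Hes5 negative replicate 2. Unc13a encodes Munc13-1, which opens syntaxin 1 so that vesicles become ready to fuse. It had 6.93, 7.66 and 7.55 in Pitx3 positive cells, against 5.53, 6.66 and 6.33 in Pitx3 negative cells. The groups did not overlap, and the difference of 1.21 ± 0.38 (SE) passed the test in the paired fit (adjusted p = 0.0382) and not without pairs (0.178). The call held in 5 of 9 fits with 1 pair left out, and was lost without any of the 3 Pitx3 pairs or Nurr1 pair 2 (adjusted p up to 0.168). It had 7.61, 7.27 and 6.22 in Nurr1 positive cells, against 5.44, 6.14 and 5.78 in Nurr1 negative cells, again without overlap and with a difference of 1.24 ± 0.38 (SE) (adjusted p = 0.406, and 0.0866 in the paired fit). Unc13a had 5.44, 5.79 and 5.99 in Hes5 positive cells, against 5.67, 6.2 and 5.11 in Hes5 negative cells, and 1 positive and 1 negative array were above background.

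Cadps encodes CAPS, a priming factor best known for dense core vesicles. It had 8.64, 10.43 and 10.37 in Pitx3 positive cells, against 7.41, 9.36 and 8.6 in Pitx3 negative cells, and the groups overlapped, while every pair was higher in positive cells. The difference of 1.36 ± 0.74 (SE) passed narrowly in the paired fit (adjusted p = 0.0499) and not without pairs (0.416). It held in 4 of 9 fits with 1 pair left out, and was lost without any of the 3 Pitx3 pairs, Nurr1 pair 2 or Hes5 pair 3 (up to 0.241). The Nurr1 line held the largest Cadps difference of the 3 lines, with 9.41, 9.77 and 10.13 in positive cells, against 6.75, 7.77 and 9.15 in negative cells. These groups did not overlap, and the difference of 1.88 ± 0.74 (SE) missed the threshold in both fits (adjusted p = 0.543, and 0.0657 in the paired fit). Cadps had 8.99, 8.86 and 7.26 in Hes5 positive cells, against 7.21, 9.15 and 6.95 in Hes5 negative cells. Its relative Cadps2 differed by 0.02 and -0.53 in the Pitx3 and Nurr1 sorts, and the other genes tested, Unc13c, Rims2 and Pclo, by 0.65, 0.51 and 0.37 in the Pitx3 sort.

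Both endocytic genes tested rose in the paired fit of the Pitx3 sort. Snap91 encodes AP180, a neuronal clathrin assembly protein. It had 5.97, 7.48 and 6.66 in Pitx3 positive cells, against 5.36, 6.8 and 5.3 in Pitx3 negative cells, where replicates 1 and 3 were not above background. The groups overlapped, every pair was higher in positive cells, and the difference was 0.88 ± 0.46 (SE) (adjusted p = 0.0319 in the paired fit, and 0.392 without pairs). Leaving out Pitx3 pair 2 or 3, Nurr1 pair 2 or Hes5 pair 3 ended the call (up to 0.201), which held in 5 of 9 such fits. In the Nurr1 line it had 5.95, 6.16 and 5.89 in positive cells, against 4.83, 5.23 and 5.07 in negative cells, all 3 of them not above background, so that it was at least 1.15-fold higher in Nurr1 positive cells (adjusted p = 0.601). Snap91 had 5.38, 5.78 and 5.14 in Hes5 positive cells, against 4.81, 6.36 and 4.91 in Hes5 negative cells, and only Hes5 negative replicate 2 was above background.

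Amph encodes amphiphysin, which brings dynamin to the neck of the budding vesicle. It had 9.91, 10.27 and 9.5 in Pitx3 positive cells, against 9.1, 9.75 and 8.7 in Pitx3 negative cells, with overlap but a higher value in positive cells in every pair. The difference was 0.71 ± 0.42 (SE) (adjusted p = 0.0451 in the paired fit, and 0.462 without pairs). This call held in 2 of 9 fits with 1 pair left out, those without Hes5 pair 1 or 2, and was lost in the other 7 (up to 0.206). In the Nurr1 line Amph had 9.79, 9.6 and 9.74 in positive cells, against 9.39, 8.76 and 9.4 in negative cells, without overlap and with a difference of 0.53 ± 0.42 (SE) (adjusted p = 0.759). Amph had 8.32, 9.11 and 9.15 in Hes5 positive cells, against 7.85, 9.62 and 9.66 in Hes5 negative cells, and the groups overlapped.

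Another 11 of the 48 genes were tied to a probe and above background in 0 of the 18 arrays: Syt2, Syt3, Syt6, Syt7, Snap25, Sv2c, Rims1, Bsn, Synpr, Dnm3 and Synj1. Snap25, the plasma membrane partner of syntaxin, and Rims1 and Bsn, scaffolds of the active zone, are in this set, so nothing is said of their levels beyond background at their probes. Of the 34 genes tested, 24 were above background in all 18 arrays. The fewest detections were those of Rab3b, in 4 arrays, Rab3c, in 5, and Syt13, in 6. These genes entered the test mostly through positive cells, so their higher means there were favoured by the filter. They are among the genes counted as higher in the Pitx3 and Nurr1 sorts.

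Promoter windows are shown for Unc13a and Syn1, because among the members these hold a block of letters from the RE1 element, the site of the repressor REST that keeps neuronal genes silent in other cells. Windows of 300 bases, from 250 before to 50 after the gene start, came from RefSeq (build GRCm38.p6) and were found for 38 of the 48 genes. Capitals mark the matches, and the sequences read 5′ to 3′ along the gene. The Unc13a window is chr8:71671708-71672007 on the minus strand, and the Syn1 window is chrX:20920869-20921168 on the minus strand.
Unc13a: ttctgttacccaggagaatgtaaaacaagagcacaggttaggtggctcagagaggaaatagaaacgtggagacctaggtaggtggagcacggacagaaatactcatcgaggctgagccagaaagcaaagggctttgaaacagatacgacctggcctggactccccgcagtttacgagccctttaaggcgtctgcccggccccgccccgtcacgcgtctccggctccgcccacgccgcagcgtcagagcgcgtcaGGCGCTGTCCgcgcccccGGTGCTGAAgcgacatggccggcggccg
Syn1: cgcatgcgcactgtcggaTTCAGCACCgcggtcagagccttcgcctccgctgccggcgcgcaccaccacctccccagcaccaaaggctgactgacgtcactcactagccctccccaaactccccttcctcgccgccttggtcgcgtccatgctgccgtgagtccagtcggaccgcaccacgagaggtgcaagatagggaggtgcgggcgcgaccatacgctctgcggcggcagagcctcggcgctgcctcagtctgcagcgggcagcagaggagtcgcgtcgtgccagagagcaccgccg

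The left block of RE1, TTCAGCACC, searched on both strands, is in 0.371% of all 32851 windows and among the members in Unc13a and Syn1 alone. In Syn1 it reads along the gene at bases 19 to 27, counted from 1 at the 5′ end. The right block of RE1 is in 0.137% of all windows and among the members in Unc13a alone, where both blocks lie on the other strand, the right at bases 255 to 264 and the left at bases 273 to 281, without overlap. The cyclic AMP response element TGACGTCA is in 1.79% of all windows and among the members in Syn1, and the NRF1 site is in 0.971% and among the members in Bsn. The NBRE AAAGGTCA, the letters bound by Nurr1 (1.51% of all windows), and the EBF site (0.904%) are in none of the 51 windows of the members, which says only that these letters are not in these windows.

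The sorts of the lines were then compared with each other. Between the Pitx3 and the Hes5 line the sort difference was larger in the Pitx3 line for 26 of 34 genes (49% of all genes), with a median of 0.43, and limma called 0 of 34 in either fit, where 0% of all genes were called higher and 0.0299% lower without pairs, and 1.27% and 2.05% in the paired fit, with 2 at an unadjusted p under 0.05 (3.08% of all genes). Syt9 differed by 1.56 ± 0.52 (SE) between the sort effects (adjusted p = 0.356, and 0.0526 in the paired fit). Syt13 had an adjusted p of 0.125 (0.0571 in the paired fit), but it was not above background in Pitx3 negative and Hes5 positive cells, so no size is given for it. Without Hes5 negative replicate 2 the count was 19 of 34 and the median 0.06. Between the Nurr1 and the Hes5 line the count was 28 of 34 with a median of 0.59 (46.7% of all genes), and 22 of 34 with a median of 0.23 without that array. Between the Pitx3 and the Nurr1 line it was 14 of 34 with a median of -0.13 (51.1% of all genes). In the Nurr1 against Hes5 and the Pitx3 against Nurr1 comparison limma called 0 of 34 in both fits, where 0% of all genes were called higher in either and at most 0.00749% lower, with 2 and 0 of 34 higher at an unadjusted p under 0.05 (1.59% and 0.217% of all genes).

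The Hes5 sort itself also turned on that array. Without it 30 of 34 genes had a higher mean in Hes5 positive cells, against 55.9% of all genes, with a median of 0.40, and still 0 were called without pairs, where 0.0524% of all genes rose and 0.704% fell. Without Hes5 negative replicate 1 the count was 11 of 34, with a median of -0.11. In the paired fit without the second Hes5 pair 26 of 34 did, with a median of 0.34. Cplx1 and Syt11 rose and Syngr1 fell, 3 of 34 called where 4.3% of all genes rose and 4.67% fell. The Syngr1 probe used had 7.23 and 8.04 in Hes5 positive replicates 1 and 3, against 8.90 and 8.81 in Hes5 negative cells. Another Syngr1 probe went the other way in those replicates, with 6.24 and 6.68 against 5.81 and 6.63.

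The positive cells of the 3 lines, which were set against each other next, differed in level. Each reporter was read in 1 line, so reporter and line cannot be told apart in these differences. Pitx3 negative arrays had means over the 34 genes of 8.02, 8.82 and 8.13, and Nurr1 negative arrays of 7.55, 7.93 and 8.11. Hes5 positive arrays had 8.0, 8.13 and 7.77. Pitx3 positive cells had the higher mean for 32 of 34 genes against Hes5 positive cells (49.9% of all genes), with a median difference of 0.85. Nurr1 positive cells had it for 27 of 34 against Hes5 positive cells (51.3% of all genes), with a median of 0.56, or 0.47 with genes not above background at their bound. These comparisons share the Hes5 positive arrays. Pitx3 positive cells had it for 31 of 34 against Nurr1 positive cells (50.2% of all genes), with a median of 0.35, but in the authors' deposited table, in which the median over all genes lies at -0.19, the count was 25 and the median 0.16.

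Syt13 and Unc13a rose in Pitx3 positive against Hes5 positive cells, 2 of 34 where 2.1% of all genes rose, and none fell, where 2.43% of all genes fell. Syt13 was above background in every Pitx3 positive array and in no Hes5 positive array, and was at least 2.55-fold higher in Pitx3 positive cells, with a fitted difference of 2.08 ± 0.35 (SE) (adjusted p = 0.0077). The call held with each of the 18 arrays left out in turn, and was lost with the arrays of those groups alone (0.0763). Unc13a differed by 1.64 ± 0.38 (SE) (adjusted p = 0.0281), and every Pitx3 positive array was above every Hes5 positive array. This call was lost in the authors' deposited table (0.0575), without the detection filter (0.0605), with the arrays of the positive cells compared alone (0.0874), and without any of Pitx3 positive replicates 2 and 3 and Hes5 positive replicates 1 and 3 (up to 0.149), and it held in the other 14 of the 18 fits with 1 array left out.

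A further set of genes lay without overlap in the same direction. Syp, Syngr3, Syt4, Napb, Stx1a and Snap91 are given because a fit with replicate number as a block across lines called them here. Their direction thus follows from the choice. Between Pitx3 positive and Hes5 positive cells 16 of 34 were higher without overlap (13.8% of all genes), and 16 had an unadjusted p under 0.05 (12.4% of all genes). Syp differed by 1.67 ± 0.54 (SE) (adjusted p = 0.0816), Syngr3 by 1.53 ± 0.46 (SE) (0.0688), Syt4 by 1.96 ± 0.61 (SE) (0.0738), Napb by 1.36 ± 0.43 (SE) (0.0799) and Stx1a by 1.31 ± 0.40 (SE) (0.0686). Snap91, not above background in Hes5 positive cells, was at least 1.88-fold higher in Pitx3 positive cells (adjusted p = 0.11). Without Hes5 negative replicate 2, which is in neither group but enters the estimate of spread, 8 of 34 rose, where 4.48% of all genes rose in place of 2.1%: Napb, Rab3a, Stx1a, Syngr3, Syp, Syt13, Syt4 and Unc13a.

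Between Nurr1 positive and Hes5 positive cells limma called 0 of 34, where 0.0898% of all genes rose and 0.307% fell, with 5 rises at an unadjusted p under 0.05 (6.42% of all genes) and 15 genes higher without overlap (10.4% of all genes). Syt13 was at least 1.44-fold higher in Nurr1 positive cells (adjusted p = 0.15) and Unc13a differed by 1.29 ± 0.38 (SE) (0.171). Between Pitx3 positive and Nurr1 positive cells limma called 0 of 34, where 0.015% of all genes rose and 0% fell, with 2 rises at an unadjusted p under 0.05 (2.22% of all genes). The genes higher without overlap in that comparison were 3, Sv2a, Syt4 and Syt9 (4.64% of all genes), at 0.64, 0.78 and 1.02.

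**Figure D5:**
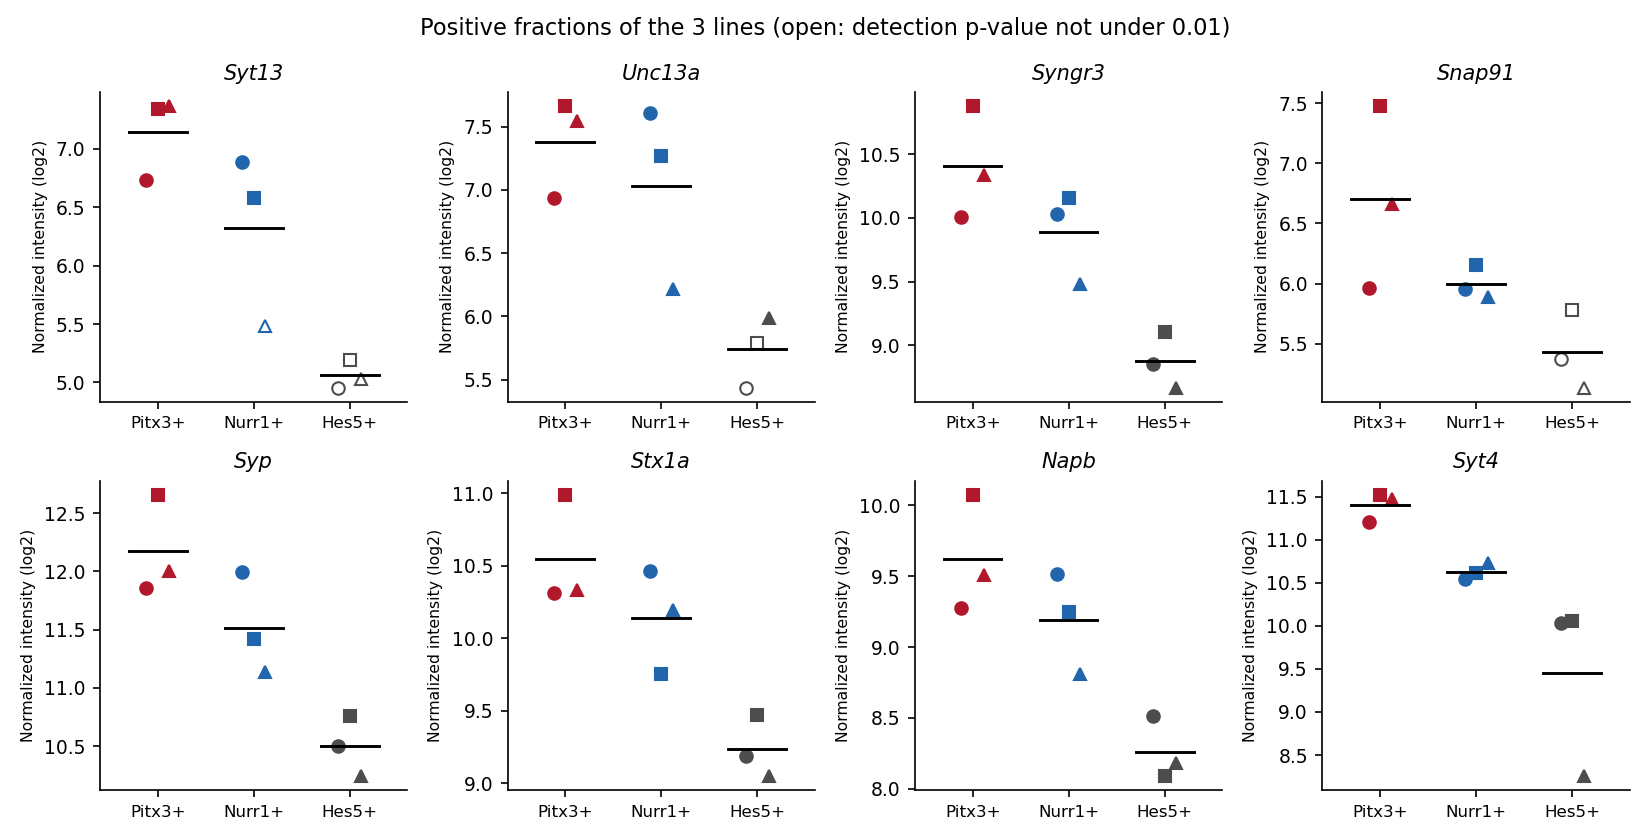
Normalized log2 intensity of 8 genes in the positive arrays of the Pitx3, Nurr1 and Hes5 lines (points, with group means as bars and open symbols where the detection p-value was not under 0.01). The 8 genes are those called between Pitx3 positive and Hes5 positive cells in a fit with replicate number as a block across lines. Their order between these groups thus follows from the choice and is no separate result. In each of the 8 genes the mean is highest in Pitx3 positive and lowest in Hes5 positive cells, and every Pitx3 positive array is above every Hes5 positive array.

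Other genes of the same pathway, 72 by name with 50 tested, had higher means in positive cells for 39 of 50 genes in the Pitx3 sort, 40 in the Nurr1 sort and 30 in the Hes5 sort, with medians of 0.31, 0.38 and 0.05. The Hes5 count was 36 of 50, with a median of 0.30, without Hes5 negative replicate 2. Without pairs 0 of 50 were called in any of the 3 sorts. In the paired fit of the Pitx3 sort 6 of 50 rose and 4 of 50 fell, where 6.24% and 8.82% of all genes did. Rab3ip, an exchange factor for RAB GTPases, rose by 0.87 (adjusted p = 0.00904 in the paired fit), and Ap2a2, a subunit of the clathrin adaptor AP2, by 0.57 (0.0172). Vamp3 and Snap23, SNAREs of many cell types outside neurons, fell, with differences of -0.71 (0.0165) and -1.34 (0.0172). Others called, named after their values had been seen, were Erc2 (an active zone scaffold, deposited under the older symbol D14Ertd171e), Stxbp5 (tomosyn) and Doc2a (a calcium sensor), at 1.60, 0.87 and 0.86, and Slc6a17 (an amino acid transporter of vesicles) and Vamp8 (a SNARE of endosomes and secretory granules), at -1.89 and -1.24. Doc2a was above background in 1 of 3 Pitx3 negative arrays. In Pitx3 positive cells Vamp8 was above background in 1 of 3 arrays and Slc6a17 in 2 of 3. The sizes of these 3 differences rest partly on values near background.

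Markers of cell types and states moved with the same sorts. All 7 pan-neuronal genes tested (of 10 named) had higher means in Pitx3 positive, Nurr1 positive and Hes5 positive cells, with median differences of 0.99, 1.46 and 0.42 (0.85 in the Hes5 sort without Hes5 negative replicate 2), and their array means spanned 10.32 to 11.10 in Pitx3 positive, against 9.39 to 10.10 in Pitx3 negative cells. All 8 genes of cycling cells tested (of 10 named) had lower means in Pitx3 positive and Nurr1 positive cells, with medians of -2.07 and -1.22, and 7 fell in the paired fit of the Pitx3 sort. Their array means spanned 5.12 to 9.52 in Pitx3 positive, against 8.52 to 10.19 in Pitx3 negative cells. All 9 neural progenitor genes tested (of 10 named) fell in that fit, with a median of -1.99 and array means of 7.67 to 9.92 in Pitx3 positive, against 10.63 to 11.14 in Pitx3 negative cells. All 5 serotonin neuron genes fell there too, with a median of -3.25 and array means of 6.86 to 7.99 in Pitx3 positive, against 10.07 to 11.43 in Pitx3 negative cells. The Hes5 sort differed from this. In Hes5 positive cells 8 of 9 progenitor genes, a list that holds Hes5 itself, had higher means (median 0.53). Of the cycling genes 5 of 8 did (median 0.19). Without Hes5 negative replicate 2 the counts were 9 of 9 and 1 of 8.

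All 7 dopamine neuron genes had higher means in Pitx3 positive cells (median 4.10), and 6 rose in the paired fit. This list holds Nr4a2 and Pitx3, and the median is the difference of Pitx3 itself. The Pitx3 reporter defined the sort, so the difference of Pitx3 follows from the sort and is no separate result. Of the pluripotency genes 0 of 8 were higher in Hes5 positive cells (median -2.29, and -3.53 without Hes5 negative replicate 2), and their array means in Hes5 negative cells were 10.22, 6.37 and 9.22 in replicates 1, 2 and 3. Replicate 2 of that group was low in pluripotency genes and high in vesicle genes. Of the other lists, 0 of 6 fibroblast and smooth muscle genes and 0 of 6 astrocyte and oligodendrocyte genes were higher in Pitx3 positive cells, with medians of -0.99 and -1.64. In Hes5 positive cells 0 of 6 and 6 of 6 were higher, with medians of -1.98 and 0.56. Over all lists, the markers S100b, Postn, Nefl, Pax6 (neural progenitors), Ccna2 and Bub1 (both cycling cells) were above background in no array. The part of these cell types in the differences of the vesicle genes was not tested.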

How the data were processed

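The 18 Illumina mouse BeadArrays were analysed from 2 deposited tables. Per the file headers, the deposited scanner table gives a mean bead intensity (linear, not background-subtracted, not normalized between arrays), a detection p-value and a count of beads for each of 45281 probes. The deposited gene table holds log2 intensity for 31441 genes, which equals the log2 of 1 probe's intensity or of a mean of several. GenomeStudio and Partek are named, without versions, per the submitters' processing notes. The scanner table carries no gene names, so probes were tied to genes by matching values in all 18 arrays: 31186 genes (99.2%) were tied, 0 ambiguously, and 0 of 300 shuffled value sets matched. Not used here were 18 columns giving the standard error over beads.

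Intensities were normalized with neqc of limma (version 3.58.1 in R 4.3.3, with the package data.table at version 1.17.8; background from the detection p-values, quantile normalization, offset 16, log2). Probes with a detection p-value under 0.01 in at least 3 arrays were kept (18737, of which 521 have no gene), and each gene was read from its brightest kept probe. Levels of different probes are not compared. One called gene of the wider pathway list is not reported here. One model of 6 group means over all 18 arrays (lmFit and eBayes, two-sided, 12 residual degrees of freedom) tested 13358 genes at an adjusted p under 0.05. Pairing was checked on each array's deviation from its group mean: within a line, equal-numbered arrays of opposite fractions gave r of 0.44 to 0.77 (9 of 9 pairs), and unequal-numbered ones -0.64 to 0.17. Fractions are thus paired by number, and the paired fit has 6 residual degrees of freedom. Across lines equal numbers gave -0.19 to 0.09, so lines were not paired. The fits were tested on simulated data.

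Median intensity was 40.6 to 60.2, the share of probes detected 33.5% to 37.4%, and the mean number of beads 42.8 to 44.2. Arrays of a group correlated at 0.88 to 0.97. The number of arrays limits the precision. Members, roles and lists were chosen with earlier results of these data known. By rule, array values are given for each member called in any comparison with or without pairs and for the 2 of each role with the largest Pitx3 sort difference. Alternatives were the authors' table, other scalings, no detection filter, the mean of kept probes, the compared arrays alone, the replicate block and arrays or pairs left out. Python 3.11.15, numpy 2.4.6, pandas 2.3.3, numba 0.67.0 and matplotlib 3.10.9 were used for matching and plots.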

Additional observations from a re-analysis of the deposited data

How the results depend on the processing

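The shared direction held: over 6 other settings of normalization, filter, probe and arrays 30 to 32 of the 34 genes were higher in the Pitx3 sort, 31 to 32 in the Nurr1 sort and 21 to 24 in the Hes5 sort, leaving aside the setting without a detection filter, which had 38, 38 and 27 of 45 genes. Among the 6, the replicate block and the compared arrays alone leave each difference unchanged. They could not alter these counts, and the ranges come from the other settings. Counts of called genes moved more. In the Pitx3 sort 1 gene was called, 5 with the replicate block, and 0 in the authors' table, without the filter and with the arrays compared alone. Between Pitx3 positive and Hes5 positive cells 2 were called, 8 with the replicate block (where 5.72% of all genes rose and 6.17% fell), 1 in the authors' table and without the filter, and 0 with the arrays compared alone. The share of all genes called was not counted in the authors' table, without the filter or with the arrays compared alone. Changes in these counts are thus not read as a result about these genes. Equal numbers do not pair the lines, so that block result says nothing of a weaker or stronger effect. The block changed no other count of called genes.

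With single arrays left out the counts were 0 to 1 (Pitx3 sort), 0 to 0 (Nurr1 and Hes5 sorts, Pitx3 against Nurr1 positive cells), 1 to 8 (Pitx3 against Hes5 positive), 0 to 1 (Nurr1 against Hes5 positive, Pitx3 against Hes5 sort effect) and 0 to 0 (the other sort effects). With single pairs left out of the block they were 0 to 12, 0 to 8 and 0 to 3 for the Pitx3, Nurr1 and Hes5 sorts, 0 to 11, 0 to 1 and 0 to 0 for Pitx3 against Hes5, Nurr1 against Hes5 and Pitx3 against Nurr1 positive cells, and 0 to 2, 0 to 0 and 0 to 0 for the sort effects of Pitx3 against Hes5, Nurr1 against Hes5 and Pitx3 against Nurr1. The share of all genes called moved in these fits too. With single arrays left out, 0.21% to 5.16% of all genes rose between Pitx3 positive and Hes5 positive cells, and 0% to 2.83% in the Pitx3 sort. It was 0% to 0.943% between Nurr1 positive and Hes5 positive cells, and 0% to 0.225% for the Pitx3 against Hes5 sort effect. The changes in the counts are thus not particular to these genes. The pairs that moved the Nurr1 sort were Hes5 pairs 1 and 2, with 8 and 5 called. Of all genes 5.31% rose and 3.36% fell without Hes5 pair 1, and 2.54% and 1% without Hes5 pair 2. The 12 of the Pitx3 sort, among them Syt1, which fell, and the 11 of Pitx3 against Hes5 positive cells were called without Hes5 pair 1. There 10.7% and 6.85% of all genes rose, and 13.3% and 7.63% fell. Pitx3 pairs 2 and 3 left 0 called in the Pitx3 sort, where 0.195% and 0.105% of all genes rose. The cause was not tested beyond the change in the arrays fitted. Over single arrays and pairs left out, the number of genes higher ranged from 28 to 32 (Pitx3 sort), 28 to 31 (Nurr1 sort) and 11 to 30 (Hes5 sort). No gene named by rule reversed where it was called. A block by chip was not run, because the headers used here name no chip. Genes near background (Syt13, Snap91, Rab3b, Rab3c) have a bound in place of a level in some groups.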

Other observations

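Genes of dense core vesicles, the larger vesicles that carry peptides, were counted beside the synaptic vesicle genes. Of 10 named and 9 tested, 8 had a higher mean in Pitx3 positive, 9 in Nurr1 positive and 5 in Hes5 positive than in the negative cells of the line, with medians of 0.49, 1.47 and 0.34 (9 of 9 in the Hes5 sort without Hes5 negative replicate 2), and 0 were called in the 3 sorts in either fit. All 9 had a higher mean in Nurr1 positive than in Hes5 positive cells (median 1.18), where 0 rose in the fit without a block. All 9 also had a higher mean in Pitx3 positive than in Hes5 positive cells (median 1.18). There 1 of 9 rose, where 2.1% of all genes did: Pcsk2, a convertase of prohormones, named after its values had been seen. It had 9.71, 9.996 and 9.6 in Pitx3 positive cells, against 6.55, 8.09 and 6.33 in Hes5 positive cells, without overlap, a difference of 2.78 ± 0.73 (SE, limma adjusted p = 0.0447). Nurr1 positive cells, with 9.58, 9.52 and 8.65, also lay above all Hes5 positive arrays for Pcsk2.

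Among the other pathway genes Picalm, the relative of AP180 found in most cells, was above background in 6 of 6 arrays of the Hes5 line, in 1 of 6 of the Pitx3 line and in 1 of 6 of the Nurr1 line. It had 5.41, 6.22 and 6.02 in Pitx3 positive cells, against 4.95, 5.73 and 5.68 in Pitx3 negative cells, and 5.65, 5.56 and 5.68 in Nurr1 positive cells, against 5.14, 5.38 and 5.9 in Nurr1 negative cells. In the Hes5 line it had 9.07, 8.1 and 9.18 in positive cells, against 8.77, 8.0 and 9.18 in negative cells, and all 6 arrays of that line were above all 12 of the others. Picalm fell in Nurr1 positive against Hes5 positive cells, where it was at least 7.62-fold lower (adjusted p = 0.000421), since no Nurr1 positive array was above background. It also fell in Pitx3 positive against Hes5 positive cells (0.00105), where 1 of 3 Pitx3 positive arrays was above background and the fitted difference was -2.90. No sort difference can be read for it in the Pitx3 and Nurr1 lines. In the same comparison of Pitx3 positive with Hes5 positive cells Erc2 rose, by 2.46 (0.0392). What sets the Hes5 line apart for Picalm was not tested.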
